A study of Mus musculus with 18 samples.

Results

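Mouse bone marrow-derived macrophages (BMDMs) that had been made tolerant to lipopolysaccharide (LPS) were compared with BMDMs that met LPS once. The comparison takes 6 of the 18 RNA-Seq samples of the series, 3 LPS-tolerant and 3 LPS-stimulated, which were picked by their labels and not by any measured value. LPS-tolerant BMDMs received LPS at 100 ng/ml for 24 h and then, in fresh medium, LPS at 10 ng/ml for 3 h. LPS-stimulated BMDMs received LPS at 10 ng/ml alone for 3 h. Both groups came from C57BL/6 female mice with no engineered allele, were grown from marrow in medium with L929 cell-conditioned medium and horse serum, and received no carboplatin, the drug given to 2 of the other groups. The LPS was from Salmonella. Unstimulated BMDMs and LPS-primed BMDMs (100 ng/ml for 24 h, with no further dose), 3 samples each, serve below as reference levels. The tolerant samples differ from the stimulated ones in total time with LPS, in the higher first dose and in the change of medium, and these cannot be told apart here. The methods speak of biological replicates, but whether a replicate number stands for 1 mouse was not given in the sources used here. The p values therefore measure the spread between samples, which was estimated over all 18, the 2 carboplatin groups included.

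LPS of Gram-negative bacteria is sensed by TLR4 with its partners MD-2 (Ly96) and CD14. The receptor signals through the adaptors MyD88 and TRIF to NF-kB, MAP kinases and interferon regulatory factors, which together switch on cytokines, chemokines and interferon. After a first exposure macrophages enter a state known as endotoxin tolerance. In it some genes, called tolerizeable, respond weakly to a second dose, while others, called nontolerizeable, remain inducible or stay high; many antimicrobial genes belong to the second class.

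Between 8179888 and 11351065 read pairs were counted on genes in the LPS-tolerant samples and between 8288222 and 14708099 in the LPS-stimulated ones. All 10 markers of macrophages that were looked up, among them Csf1r, Adgre1 and Cd68, were found in all 6 samples, and their summed level was 28955 to 33860 CPM (counts scaled to the size of the library) in tolerant and 17860 to 23806 CPM in stimulated BMDMs. Taken singly, 6 of the 10 were higher and 4 lower in tolerant BMDMs at an edgeR adjusted p under 0.05. Markers of neutrophils summed to 41.1 to 242 CPM and 9.79 to 16.9 CPM, while 6 of the 12 (Ly6g, Mpo, Ngp, Retnlg, Cxcr2 and Ltf) had no read in these samples. B-cell markers summed to 0.49 to 1.06 and 7.24 to 27.2 CPM, with Cd79a and Pax5 among those at 0. T and NK cell markers reached at most 5.19 CPM with 5 of 8 at 0, and the stromal and endothelial list lay at 18.8 to 21.0 and 28.7 to 56.6 CPM. This last list holds Sele (E-selectin), which had no read in tolerant and 258, 119 and 87 reads in stimulated samples. Of its 5 tested members 3 were lower and 1 higher in tolerant BMDMs at an edgeR adjusted p under 0.05. Read pairs outside annotated genes made up 28.4 to 29.3% of the tolerant and 30.2 to 33.1% of the stimulated libraries, and the 50 genes with the most reads took 29.0 to 31.0% and 20.2 to 22.4% of the reads on genes; the part of these differences in the results was not tested. In a principal component analysis the first component (70.8% of the variance) separated the groups, and the second (13.0%) set replicate 1 of both groups apart from replicates 2 and 3. The replicate number was a block in the main fit by the plan of the comparison.

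Of 11305 genes tested, 935 (8.27%) were DEGs at the limits of the study, an adjusted p under 0.05 and a |log2FC| over 2 in edgeR's quasi-likelihood test. The log2FC is tolerant over stimulated throughout, and ± gives its SE. DEGs that were lower in LPS-tolerant BMDMs numbered 583 (5.16% of those tested), and 352 (3.11%) were higher. In 925 of the DEGs all 3 same-numbered pairs moved the same way, and in 906 the samples of the 2 groups did not overlap. Over all tested genes the groups did not overlap in 21.1% on the higher and 23.1% on the lower side. At an adjusted p under 0.05 alone, which is what "rose", "fell", "higher" and "lower" stand for below, 2588 genes (22.9%) were higher and 2792 (24.7%) lower, and the median log2FC of all tested genes was -0.00. Without LPS-stimulated replicate 1 there were 410 higher and 574 lower DEGs, and without LPS-tolerant replicate 2 there were 354 and 617. Since RNA was taken from whole cultures, fewer cells of a kind and less RNA per cell cannot be told apart for any gene.

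**Figure D1:**
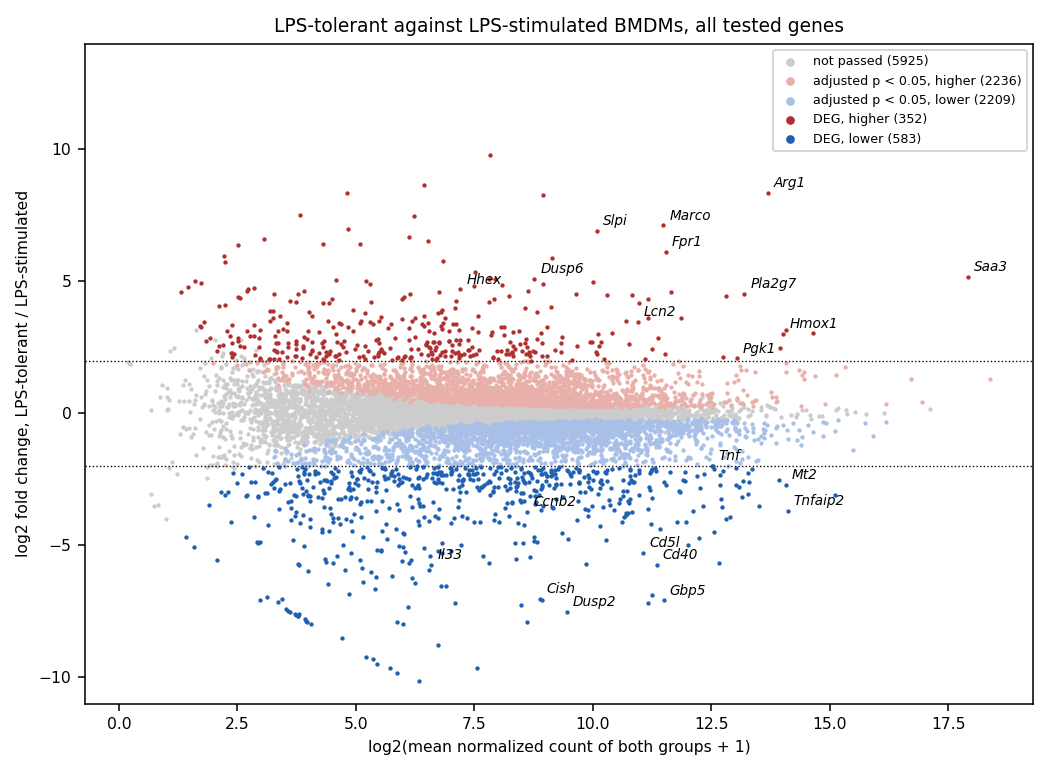
Log2 fold change of LPS-tolerant over LPS-stimulated BMDMs (3 samples each) against the log2 mean normalized count of both groups, 1 point per tested gene, with dotted lines at a log2FC of 2 and -2. Dark red points are the 352 higher and dark blue points the 583 lower DEGs, light points passed only the adjusted p, and grey points did not pass.

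Genes that the study followed in its tolerance assays came first. Tnf, the early inflammatory cytokine of macrophages (chr17:35418357-35420983, minus strand, GRCm39), was at 2555, 2038 and 2258 normalized counts in LPS-tolerant and 14714, 7858 and 5988 in LPS-stimulated samples (log2FC -2.0 ± 0.23, edgeR adjusted p = 1.22e-06). Its groups did not overlap, and it lay just at the limit for a DEG. LPS-primed samples held 285, 353 and 267 normalized counts, and tolerant ones were above them (log2FC 2.92 ± 0.24, edgeR adjusted p = 7.61e-07). Unstimulated samples held 131, 75.4 and 61.8, and stimulated ones were above them (log2FC 6.71 ± 0.29, edgeR adjusted p = 3.16e-12). These last contrasts share samples with the main one, and the difference between the responses was not tested.

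Il6 (chr5:30218112-30224979, + strand), which encodes an inducer of the acute-phase response, was at 438, 12.1 and 64.9 normalized counts in LPS-tolerant and 1444, 428 and 478 in LPS-stimulated samples (log2FC -2.88 ± 0.46, edgeR adjusted p = 9.58e-05, 0.13 without the replicate block, log2FC -3.75 without LPS-tolerant replicate 1). Each tolerant sample was below the stimulated sample of the same number, yet tolerant replicate 1 lay within the stimulated range. Replicate 1 was the highest in both groups. In tolerant against primed BMDMs the difference did not pass (log2FC 0.81 ± 0.51, edgeR adjusted p = 0.29).

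Cd40 (chr2:164897544-164914868, + strand), the receptor through which T cells license macrophages, differed far more. It was at 91.2, 73.4 and 126 normalized counts in LPS-tolerant and 5287, 4533 and 5520.1 in LPS-stimulated samples (log2FC -5.74 ± 0.23, edgeR adjusted p = 3.06e-12), against 74.1, 85.4 and 86.3 after priming and 50.7, 58.2 and 35.4 without LPS. The tolerant samples thus stayed near the level of cells without a second dose, and the difference from LPS-primed BMDMs did not pass (log2FC 0.23 ± 0.23, edgeR adjusted p = 0.53).

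Marco and Saa3, also followed there, were higher. Marco (chr1:120402267-120432753, minus strand), a scavenger receptor that binds bacteria, was at 1354, 9012 and 6774 normalized counts in LPS-tolerant and 28.6, 45.7 and 35.5 in LPS-stimulated samples (log2FC 7.12 ± 0.33, edgeR adjusted p = 1.73e-11). Saa3 (chr7:46361422-46365576, minus strand), an acute-phase serum amyloid A made by macrophages, was at 443984, 491379 and 519547 normalized counts in LPS-tolerant and 11996, 10996 and 17547 in LPS-stimulated samples (log2FC 5.19 ± 0.17, edgeR adjusted p = 3.48e-13). Both were already at that height in LPS-primed BMDMs, where Saa3 was at 490853, 426880.0 and 486808 and Marco at 1716, 6183 and 5462, and neither passed the test between tolerant and primed cells (adjusted p = 0.84 and 0.58, edgeR).

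**Figure D2:**
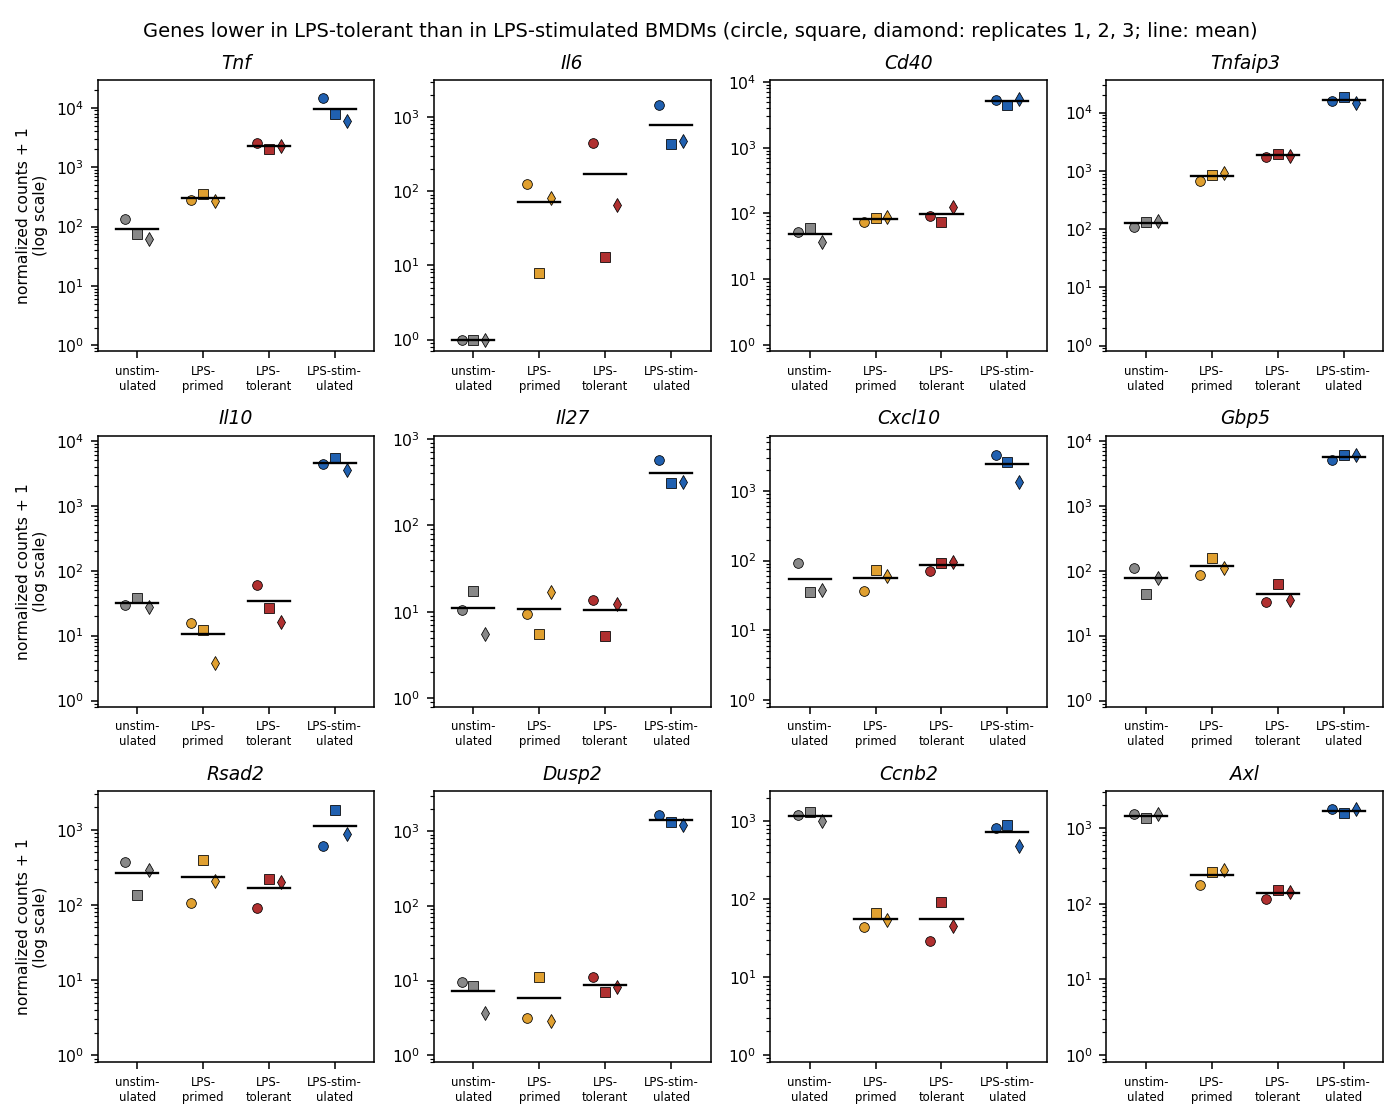
Normalized counts plus 1 (log axis) of 12 genes that fell in tolerant against singly stimulated cells, in all 12 samples of the unstimulated, LPS-primed, LPS-tolerant and LPS-stimulated groups, with circle, square and diamond for replicates 1, 2 and 3 and a line at the mean. Ccnb2 and Axl were low from priming on, whereas Cd40, Il10, Gbp5 and Dusp2 were high only after the single dose among these 4 groups; only in Il6 do the tolerant and stimulated points overlap.

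The promoters of 4 of the genes that these results turn on are shown: Cd40 and Cxcl10, the latter an interferon-inducible chemokine, Rsad2, an antiviral gene, all lower in tolerant cells, and Saa3, which was higher. Each is the 300 bases before the start of the canonical transcript, from GRCm39 with the GENCODE vM39 annotation, 5′ to 3′ on the strand of the gene, with no annotated exon in it. Capitals mark matches on either strand to the NF-kB consensus (GGG, a purine, any base, A or T, 2 pyrimidines and CC), to the interferon response core (GAAA, any 2 bases, GAAA), or to the AP-1 motif TGANTCA; none of the matches shown overlaps another.
Cd40 (chr2:164897244-164897543, plus strand): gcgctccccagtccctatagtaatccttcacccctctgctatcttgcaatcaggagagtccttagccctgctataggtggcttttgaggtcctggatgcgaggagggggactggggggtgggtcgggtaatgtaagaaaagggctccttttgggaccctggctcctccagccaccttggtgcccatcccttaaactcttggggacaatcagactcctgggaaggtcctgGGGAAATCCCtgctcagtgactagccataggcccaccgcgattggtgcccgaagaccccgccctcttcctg
Cxcl10 (chr5:92496749-92497048, minus strand): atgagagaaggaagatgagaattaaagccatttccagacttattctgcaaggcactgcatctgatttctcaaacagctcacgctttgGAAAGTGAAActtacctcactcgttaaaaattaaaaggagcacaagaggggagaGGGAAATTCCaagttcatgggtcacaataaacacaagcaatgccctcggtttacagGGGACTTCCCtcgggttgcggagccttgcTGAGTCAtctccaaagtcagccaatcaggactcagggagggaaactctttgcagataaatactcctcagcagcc
Rsad2 (chr12:26506452-26506751, minus strand): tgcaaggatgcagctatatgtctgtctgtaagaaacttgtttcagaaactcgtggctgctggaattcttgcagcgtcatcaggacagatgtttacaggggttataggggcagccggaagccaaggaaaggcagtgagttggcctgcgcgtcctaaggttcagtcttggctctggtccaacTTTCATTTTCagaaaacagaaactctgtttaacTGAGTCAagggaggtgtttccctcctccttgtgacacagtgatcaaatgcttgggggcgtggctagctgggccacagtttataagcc
Saa3 (chr7:46365577-46365876, minus strand): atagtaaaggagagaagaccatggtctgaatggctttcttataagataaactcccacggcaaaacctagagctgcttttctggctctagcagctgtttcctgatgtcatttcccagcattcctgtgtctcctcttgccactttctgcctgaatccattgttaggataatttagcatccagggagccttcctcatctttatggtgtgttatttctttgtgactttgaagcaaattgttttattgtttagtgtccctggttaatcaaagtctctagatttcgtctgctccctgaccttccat

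The Cd40 window held 1 NF-kB match, which starts 71 bases before the transcript. Cxcl10 held 4 matches, with the interferon core 213, NF-kB matches 159 and 103, and AP-1 74 bases before the start. Rsad2 had the interferon core, on the other strand, 120 bases and AP-1 87 bases before the start, and the Saa3 window held none of these letters. Over all tested genes with a promoter, NF-kB matches were in 574 of 11002 (5.22%), against 60 of 570 (10.5%) of the lower and 20 of 343 (5.83%) of the higher DEGs. The interferon core was in 411 of 11002 (3.74%) of all, 32 of 570 (5.61%) of the lower and 11 of 343 (3.21%) of the higher DEGs, and AP-1 in 651 of 11002 (5.92%), 61 of 570 (10.7%) and 30 of 343 (8.75%). Among interferon-stimulated genes the core was in 15 of 35 (42.9%), and among NF-kB subunits and inhibitors the NF-kB consensus was in 6 of 18 (33.3%). These are shares of letters in a window and were not tested.

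Proinflammatory cytokines were mostly lower in LPS-tolerant BMDMs: of 19 tested, 14 fell, 1 rose and 4 did not pass, with a median log2FC of -3.09 (-2.88 with the genes at the floor of 3 reads set at their bound). Il27, which shapes T-cell differentiation, was at 12.7, 4.32 and 11.3 normalized counts in LPS-tolerant and 569, 311 and 316 in LPS-stimulated samples (log2FC -5.41 ± 0.43, edgeR adjusted p = 1.50e-08). Il33, an alarmin of the IL-1 family, was at 8.86, 0 and 5.15 normalized counts in LPS-tolerant and 90.7, 187 and 282 in LPS-stimulated samples (log2FC -5.74 ± 0.91, edgeR adjusted p = 8.03e-05, log2FC -7.14 without LPS-stimulated replicate 1, -5.13 without LPS-stimulated replicate 2 and -4.99 without LPS-stimulated replicate 3). Both had tolerant levels close to those of primed cells (means of 9.66 and 8.35), and neither had overlapping groups. Il12b, the p40 chain of IL-12 and IL-23, had no read in the tolerant samples against 28.6, 13.8 and 12.8 normalized counts in the stimulated ones, at least 5.83-fold lower when the tolerant libraries are set at 3 reads each. It passed in edgeR (adjusted p = 8.68e-04) but not in DESeq2 (adjusted p = 0.33 with and 0.25 without the replicate block). Il1b and Il1a, named after their values were seen, encode the fever-inducing IL-1 cytokines. Il1b was at 25573, 1445 and 9595 normalized counts in LPS-tolerant and 63058, 48828 and 65006 in LPS-stimulated samples (log2FC -3.09 ± 0.54, edgeR adjusted p = 1.31e-04, 0.055 without the replicate block, log2FC -3.68 without LPS-tolerant replicate 1 and -2.27 without LPS-stimulated replicate 2), and Il1a had means of 7.05 in unstimulated, 1112 in LPS-primed, 3883 in LPS-tolerant and 14553 in singly stimulated cells (log2FC -2.56 ± 0.40, edgeR adjusted p = 3.97e-05, log2FC -1.87 without LPS-stimulated replicate 2). Inhba, an activin subunit, was the member that rose (log2FC 1.21 ± 0.40, edgeR adjusted p = 0.019, 0.17 without LPS-tolerant replicate 1, 0.12 without LPS-stimulated replicate 1, 0.14 in a fit of the 6 samples alone), at 390.0, 53.5 and 139 normalized counts in LPS-tolerant and 41.8, 63.0 and 76.9 in LPS-stimulated samples, with overlap. Csf3, the granulocyte growth factor G-CSF, did not pass: its tolerant samples spread from 30.2 to 1071 around stimulated ones of 106, 109 and 211 (log2FC 0.21 ± 0.62, edgeR adjusted p = 0.81).

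The list of anti-inflammatory cytokines and decoy receptors also holds growth factors and signalling receptor chains. Of its 11 tested members 6 fell and 2 rose (median log2FC -0.73). Il10, the main inhibitory cytokine of macrophages, was at 58.2, 25.9 and 15.4 normalized counts in LPS-tolerant and 4409, 5547 and 3620.2 in LPS-stimulated samples (log2FC -7.19 ± 0.33, edgeR adjusted p = 1.51e-11). All tolerant values lay near the unstimulated 28.7, 36.9 and 26.4. They were above the LPS-primed values of 14.8, 11.4 and 2.81 (log2FC of tolerant over primed 1.73 ± 0.49, edgeR adjusted p = 0.021). Il4ra, the receptor chain for IL-4 and IL-13, was at 2977, 1894 and 1540.1 normalized counts in LPS-tolerant and 11322, 21489 and 20335 in LPS-stimulated samples (log2FC -3.07 ± 0.28, edgeR adjusted p = 8.56e-08), and unlike Il10 it was high after priming alone, at 7899, 12392 and 5659. Hbegf, a ligand of the EGF receptor, fell too (log2FC -4.90 ± 0.62, edgeR adjusted p = 4.67e-06, log2FC -6.47 without LPS-tolerant replicate 1, -5.72 without LPS-stimulated replicate 1 and -4.17 without LPS-stimulated replicate 2). Vegfa, the angiogenic growth factor, rose from 509, 389.5 and 798 in stimulated to 1825, 899 and 1418 in tolerant samples without overlap (log2FC 1.26 ± 0.20, edgeR adjusted p = 6.32e-05), as did Il18bp, which neutralises IL-18 (log2FC 1.48 ± 0.27, edgeR adjusted p = 2.36e-04). Tgfb1 did not pass (log2FC 0.12 ± 0.10, edgeR adjusted p = 0.32).

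Chemokines split by gene rather than by class. Of 12 CC chemokines 5 rose and 5 fell (median log2FC 0.71), and of 11 CXC and CX3C chemokines 2 rose and 5 fell (median -0.19). Ccl4, the chemokine MIP-1 beta, was at 1319, 1030.2 and 1298 normalized counts in LPS-tolerant and 8600.2, 9635 and 7486 in LPS-stimulated samples (log2FC -2.83 ± 0.22, edgeR adjusted p = 1.15e-08). Cxcl10, a ligand of CXCR3, was at 70.9, 90.7 and 95.7 normalized counts in LPS-tolerant and 3268, 2597 and 1342 in LPS-stimulated samples (log2FC -4.78 ± 0.42, edgeR adjusted p = 5.39e-08). Ccl22 had 1 read in all tolerant libraries together against 194, 49.8 and 132 normalized counts in the stimulated ones. The neutrophil attractant Cxcl1 fell (log2FC -1.93 ± 0.24, edgeR adjusted p = 4.14e-06, 0.058 without the replicate block), but its tolerant samples, 4263, 766 and 1788, were far above the unstimulated mean of 8.98. On the other side Pf4, a platelet and macrophage chemokine, was at 20294, 13458 and 7795 normalized counts in LPS-tolerant and 469, 632 and 622 in LPS-stimulated samples (log2FC 4.44 ± 0.30, edgeR adjusted p = 1.67e-09). Ccl8 was at 134, 153 and 85.4 normalized counts in LPS-tolerant and 25.1, 7.61 and 8.87 in LPS-stimulated samples (log2FC 3.24 ± 0.40, edgeR adjusted p = 3.71e-06, log2FC 3.92 without LPS-stimulated replicate 1). Ccl6, with means of 861 in unstimulated, 4778 in LPS-primed, 4939 in LPS-tolerant and 977 in singly stimulated cells, rose likewise (log2FC 2.26 ± 0.23, edgeR adjusted p = 3.93e-07). Ccl2, the monocyte attractant MCP-1, named after its values were seen, was at 19219.5, 5601 and 8968 normalized counts in LPS-tolerant and 12484, 1427 and 2224 in LPS-stimulated samples (log2FC 1.45 ± 0.33, edgeR adjusted p = 0.0014, 0.3 without the replicate block) and above the primed mean of 1795. Ccl5 did not overlap between groups but did not pass (log2FC 0.61 ± 0.26, edgeR adjusted p = 0.061, 0.023 without LPS-stimulated replicate 3, 0.028 without the expression filter, 0.017 in a fit of the 6 samples alone). It passed in limma-voom (adjusted p = 0.0088) but not in DESeq2 (adjusted p = 0.17 with and 0.2 without the block). Cxcl3, at 15717, 1050.1 and 3685 in tolerant against 3151, 2157 and 3594 in stimulated samples, did not pass either (log2FC 0.18 ± 0.43, edgeR adjusted p = 0.76).

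Chemoattractant receptors rose in 9 and fell in 6 of 18 (7 and 4 at the DEG limits, median log2FC 0.38). The formyl peptide receptors, which sense bacterial N-formyl peptides, were among those that rose. Fpr1 was at 7176, 3738 and 6801 normalized counts in LPS-tolerant and 94.3, 51.9 and 109 in LPS-stimulated samples (log2FC 6.11 ± 0.19, edgeR adjusted p = 1.13e-13). Fpr2, which overlaps Fpr3 on its strand in the annotation, was at 3467, 2971 and 4021 normalized counts in LPS-tolerant and 169, 122 and 179 in LPS-stimulated samples (log2FC 4.48 ± 0.14, edgeR adjusted p = 1.30e-13). In neither gene did the groups overlap, and the unstimulated means were 14.9 and 8.90. Cxcr3 (log2FC -2.90 ± 0.50, edgeR adjusted p = 1.16e-04), Ccr3 (log2FC -2.80 ± 0.43, edgeR adjusted p = 3.51e-05) and Ptafr, the receptor of platelet-activating factor (log2FC -2.11 ± 0.15, edgeR adjusted p = 3.20e-09), fell.

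All 18 NF-kB subunits, inhibitors and kinases were tested: 17 fell, 9 of them as DEGs, none rose, and the median log2FC was -1.92. Tnfaip3 (A20), which removes ubiquitin chains to end NF-kB signalling, was at 1757, 1974 and 1783 normalized counts in LPS-tolerant and 15858, 18541 and 14619 in LPS-stimulated samples (log2FC -3.15 ± 0.12, edgeR adjusted p = 1.20e-12). Tnip3, a partner of A20, was at 417, 1194 and 1058 normalized counts in LPS-tolerant and 13425, 13357 and 13583 in LPS-stimulated samples (log2FC -3.99 ± 0.28, edgeR adjusted p = 3.93e-09). Bcl3, a nuclear IkB protein, was at 543, 219 and 303 normalized counts in LPS-tolerant and 3498, 2819 and 3236 in LPS-stimulated samples (log2FC -3.23 ± 0.21, edgeR adjusted p = 1.50e-09). None of these overlapped. Chuk, the kinase IKK-alpha, was the one that did not pass (log2FC 0.04 ± 0.14, edgeR adjusted p = 0.84). Tnfaip2, a TNF-induced gene outside this list and among the 3 lower DEGs with the smallest p, was at 2862, 2238 and 2569 normalized counts in LPS-tolerant and 33684, 31426 and 34089.5 in LPS-stimulated samples (log2FC -3.69 ± 0.13, edgeR adjusted p = 7.47e-13). Rnd1, a small GTPase, was another of these, at 60.8, 24.2 and 43.2 normalized counts in LPS-tolerant and 4654, 4317 and 5435 in LPS-stimulated samples (log2FC -6.89 ± 0.22, edgeR adjusted p = 1.53e-13).

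Negative regulators of TLR signalling did not move as 1 group, with 8 higher and 10 lower of 23 (median log2FC -0.67). Cish, a SOCS protein induced by STAT5, was at 13.9, 1.73 and 7.21 normalized counts in LPS-tolerant and 1410.3, 744 and 669 in LPS-stimulated samples (log2FC -7.03 ± 0.36, edgeR adjusted p = 7.13e-11). Zfp36 (tristetraprolin), which marks cytokine mRNAs for decay, was at 648, 504 and 736 normalized counts in LPS-tolerant and 6338, 9684 and 8873 in LPS-stimulated samples (log2FC -3.71 ± 0.19, edgeR adjusted p = 7.45e-11). Socs1 was at 144, 15.5 and 47.4 normalized counts in LPS-tolerant and 486, 359 and 833 in LPS-stimulated samples (log2FC -3.34 ± 0.47, edgeR adjusted p = 1.57e-05, log2FC -4.0 without LPS-tolerant replicate 1). Others rose. Irak3 (IRAK-M), a kinase-dead member of the IRAK family, was at 2944, 2311 and 2859 normalized counts in LPS-tolerant and 712, 875 and 1096 in LPS-stimulated samples (log2FC 1.60 ± 0.14, edgeR adjusted p = 3.69e-08). Inpp5d, the phosphatase SHIP1, was at 2706, 3303 and 3351 normalized counts in LPS-tolerant and 1465, 1113 and 827 in LPS-stimulated samples (log2FC 1.46 ± 0.16, edgeR adjusted p = 1.04e-06). In both the groups did not overlap. Irak3 had means of 305 in unstimulated and 3145 in LPS-primed cells. For Inpp5d these were 3460 and 2716, so that its stimulated group was the one apart. Tank did not pass (log2FC -0.12 ± 0.16, edgeR adjusted p = 0.57).

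Among MAPK phosphatases and their kin 3 rose and 5 fell of 12 (median log2FC -0.16), with members far apart. Dusp2, which acts on ERK and p38 in the nucleus, was at 10.1, 6.05 and 7.21 normalized counts in LPS-tolerant and 1650.1, 1339 and 1196 in LPS-stimulated samples (log2FC -7.51 ± 0.32, edgeR adjusted p = 8.54e-12). Dusp6, which acts on ERK in the cytoplasm, was at 1164, 471 and 904 normalized counts in LPS-tolerant and 17.9, 14.5 and 37.5 in LPS-stimulated samples (log2FC 5.11 ± 0.35, edgeR adjusted p = 2.28e-09). The levels of Dusp6 in tolerant cells were above the unstimulated mean of 116, while those after the single dose were below it. Dusp1, the first brake on p38, fell (log2FC -1.85 ± 0.19, edgeR adjusted p = 2.79e-07). Immediate-early transcription factors fell in 13 and rose in 4 of 23 (median log2FC -0.84). Egr2 was at 21.5, 24.2 and 11.3 normalized counts in LPS-tolerant and 1027, 449.7 and 414 in LPS-stimulated samples (log2FC -4.92 ± 0.27, edgeR adjusted p = 1.45e-10). Nr4a3, an orphan nuclear receptor, was at 6.33, 2.59 and 6.18 normalized counts in LPS-tolerant and 135, 69.9 and 73.9 in LPS-stimulated samples (log2FC -4.19 ± 0.48, edgeR adjusted p = 7.92e-06). Jun, a subunit of AP-1, was at 3567, 2775 and 2625 normalized counts in LPS-tolerant and 311, 412 and 692 in LPS-stimulated samples (log2FC 2.65 ± 0.22, edgeR adjusted p = 2.28e-08) and Klf4 at 263, 165 and 280.0 normalized counts in LPS-tolerant and 82.3, 35.3 and 40.4 in LPS-stimulated samples (log2FC 2.20 ± 0.21, edgeR adjusted p = 1.70e-07). The unstimulated means of Jun and Klf4 were 822 and 205.

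Tlr4, the signalling chain of the LPS receptor, did not pass the test. Its partner Cd14 was among the 10 macrophage markers, all of which passed. The direction of Cd14 and the values of Ly96 are not reported here. Of 24 TLRs, co-receptors and adaptors 5 rose and 8 fell, 3 as DEGs, with a median log2FC of -0.25. Tlr4, named after its values were seen, was at 589, 903 and 798 normalized counts in LPS-tolerant and 555, 493 and 804 in LPS-stimulated samples (log2FC 0.32 ± 0.17, edgeR adjusted p = 0.13) and its groups overlapped. Myd88 was at 855, 839 and 789 normalized counts in LPS-tolerant and 1688, 1871 and 1754 in LPS-stimulated samples (log2FC -1.10 ± 0.11, edgeR adjusted p = 2.41e-07) and Tlr2, the receptor of bacterial lipopeptides, at 7728, 8769 and 6218 normalized counts in LPS-tolerant and 18728, 16113 and 14228 in LPS-stimulated samples (log2FC -1.10 ± 0.22, edgeR adjusted p = 3.91e-04). Tlr13, which recognises bacterial ribosomal RNA, was at 3677, 5422 and 5003 normalized counts in LPS-tolerant and 937, 583 and 386 in LPS-stimulated samples (log2FC 2.87 ± 0.27, edgeR adjusted p = 1.08e-07), and its tolerant samples were near the unstimulated 3284, 4493 and 3518. Aoah, the lipase that removes acyl chains from LPS and inactivates it, was at 3649, 5127 and 4362 normalized counts in LPS-tolerant and 210.0, 207 and 224 in LPS-stimulated samples (log2FC 4.35 ± 0.16, edgeR adjusted p = 1.20e-12). Aoah was as high after priming, at 3664, 4984 and 4408, and no tolerant sample came near a stimulated one.

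Interferon-related genes were more often lower than higher. Of 36 interferon-stimulated genes 24 fell and 1 rose (median log2FC -1.22), of 14 interferon-inducible GTPases 12 fell and none rose (median -2.0), and of 23 interferons, receptors, IRFs and STATs 12 fell and 4 rose (median -0.51). Gbp5, a guanylate-binding protein that acts on vacuoles of pathogens, was at 31.7, 61.3 and 35.0 normalized counts in LPS-tolerant and 5052, 6134 and 5974 in LPS-stimulated samples (log2FC -7.08 ± 0.42, edgeR adjusted p = 3.52e-10). Gbp3 was at 113, 142 and 107 normalized counts in LPS-tolerant and 1904, 1821 and 1599 in LPS-stimulated samples (log2FC -3.89 ± 0.38, edgeR adjusted p = 1.74e-07). The tolerant samples of Gbp3 were below the unstimulated mean of 357. Irgm2 also fell (log2FC -2.52 ± 0.29, edgeR adjusted p = 1.51e-06), but it overlaps Igtp on the same strand, and the guanylate-binding proteins are close paralogs whose reads may not be fully told apart. Ifit1, which binds foreign RNA, was at 210.2, 421 and 282 normalized counts in LPS-tolerant and 2509, 4556 and 2241 in LPS-stimulated samples (log2FC -3.33 ± 0.45, edgeR adjusted p = 8.43e-06). Rsad2 (viperin) was at 91.2, 217 and 198 normalized counts in LPS-tolerant and 604, 1850.0 and 886 in LPS-stimulated samples (log2FC -2.66 ± 0.42, edgeR adjusted p = 4.35e-05). Neither overlapped, and Oas1a, at 1186, 1117 and 817 and 1754, 914 and 859.7, did not pass (log2FC -0.12 ± 0.20, edgeR adjusted p = 0.65). Bst2 (tetherin) was the member that rose (log2FC 0.67 ± 0.25, edgeR adjusted p = 0.034, 0.27 without the replicate block, 0.12 without LPS-tolerant replicate 2, 0.086 without LPS-tolerant replicate 3, 0.22 without LPS-stimulated replicate 2, 0.1 without LPS-stimulated replicate 3, 0.065 in a fit of the 6 samples alone), with overlapping groups.

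Among the transcription factors Irf4 was at 2.53, 0 and 0 normalized counts in LPS-tolerant and 144, 93.4 and 167 in LPS-stimulated samples (edgeR adjusted p = 6.64e-07) and Irf1, a driver of many of these genes, at 242, 296 and 298 normalized counts in LPS-tolerant and 2395, 2004 and 1544 in LPS-stimulated samples (log2FC -2.84 ± 0.20, edgeR adjusted p = 3.27e-09). Stat5a was at 238, 244 and 264 normalized counts in LPS-tolerant and 4095, 4652 and 4804 in LPS-stimulated samples (log2FC -4.18 ± 0.16, edgeR adjusted p = 1.29e-12), the tolerant values being close to the unstimulated 314, 290.1 and 289. Irf8, which guides the macrophage lineage, was at 1135, 961 and 1106 normalized counts in LPS-tolerant and 235, 214 and 190.3 in LPS-stimulated samples (log2FC 2.32 ± 0.14, edgeR adjusted p = 3.56e-10). It had means of 1085 in unstimulated, 947 in LPS-primed, 1067 in LPS-tolerant and 213 in singly stimulated cells, so the stimulated group was the one apart. Irf7, which amplifies type I interferon, rose (log2FC 1.80 ± 0.31, edgeR adjusted p = 1.28e-04), and the receptor chains Ifnar1 (log2FC -0.07 ± 0.12, edgeR adjusted p = 0.66) and Ifnar2 (log2FC -0.17 ± 0.13, edgeR adjusted p = 0.31, 0.036 without LPS-stimulated replicate 1) did not pass.

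Costimulatory and checkpoint molecules fell in 10 and rose in 5 of 19 (6 lower DEGs and no higher one, median log2FC -0.56). Beside Cd40, Cd83, a marker of activated antigen-presenting cells, was at 51.9, 14.7 and 38.1 normalized counts in LPS-tolerant and 2446, 1656 and 1320.1 in LPS-stimulated samples (log2FC -5.72 ± 0.32, edgeR adjusted p = 1.59e-10). Tnfsf4 (OX40 ligand) was at 1.27, 1.73 and 0 normalized counts in LPS-tolerant and 116, 72.0 and 44.4 in LPS-stimulated samples (edgeR adjusted p = 6.60e-06). Cd200r1, an inhibitory receptor, rose from 313, 467 and 336 to 896, 1060.5 and 543 without overlap (log2FC 1.14 ± 0.16, edgeR adjusted p = 1.20e-05). Sirpa, the receptor of CD47, rose too (log2FC 0.79 ± 0.14, edgeR adjusted p = 1.22e-04). Unstimulated means of Cd200r1 and Sirpa were 906 and 11883, against tolerant means of 833 and 9301 and stimulated means of 372 and 5330. In both genes the stimulated group was thus the lowest. Cd86, named after its values were seen, is the main ligand of CD28 and did not pass, at 499, 254 and 325 normalized counts in LPS-tolerant and 375, 387 and 389 in LPS-stimulated samples (log2FC -0.22 ± 0.28, edgeR adjusted p = 0.55). Of 12 genes of MHC class II presentation 5 fell and none rose (median log2FC -0.77). Ciita, their master regulator, had reads in 1 of the tolerant samples, at 0, 0 and 2.06 against 46.5, 27.7 and 41.4 in the stimulated ones. H2-Aa (log2FC -2.62 ± 0.39, edgeR adjusted p = 2.73e-05) and H2-Eb1 (log2FC -2.42 ± 0.31, edgeR adjusted p = 4.83e-06), chains of class II, fell.

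Antimicrobial effectors were mostly higher in LPS-tolerant BMDMs: 15 of 21 rose, 3 fell and 3 did not pass, with a median log2FC of 1.55 (1.41 with the genes at the floor at their bound). Slpi, a secreted inhibitor of leukocyte proteases, was at 3321, 801 and 2399.7 normalized counts in LPS-tolerant and 26.2, 8.30 and 16.8 in LPS-stimulated samples (log2FC 6.93 ± 0.19, edgeR adjusted p = 1.84e-14). Lcn2, which withholds iron from bacteria by binding siderophores, was at 3818, 2216 and 4849 normalized counts in LPS-tolerant and 338, 246 and 367 in LPS-stimulated samples (log2FC 3.48 ± 0.20, edgeR adjusted p = 2.93e-10). Csta2, a stefin-type protease inhibitor, was at 1889, 283 and 762 normalized counts in LPS-tolerant and 1.19, 2.77 and 2.96 in LPS-stimulated samples (edgeR adjusted p = 9.27e-12). None of the 3 had overlapping groups, Slpi overlaps Matn4 on its strand, and the stefins are a family of near-identical genes, so that their counts are uncertain. Ptx3, a soluble pattern recognition protein, was on the other side, at 0, 0.86 and 1.03 normalized counts in LPS-tolerant and 90.7, 60.2 and 96.6 in LPS-stimulated samples (edgeR adjusted p = 8.96e-07). Nos2, which makes nitric oxide, fell from 2906, 1831 and 3282 to 1631, 209.8 and 683 (log2FC -2.11 ± 0.29, edgeR adjusted p = 1.03e-05, 0.076 without the replicate block), although it was at 3891, 835 and 3172 after priming alone. Mpeg1 (perforin-2) did not pass (log2FC 0.13 ± 0.09, edgeR adjusted p = 0.29). Some of these genes are also made by neutrophils, whose list was higher in tolerant samples as given above; S100a8, shared by both lists, had 414, 151 and 300 reads in tolerant and 92, 55 and 118 in stimulated samples, while Ly6g and Mpo were at 0. The part of such cells in these results was not tested.

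**Figure D3:**
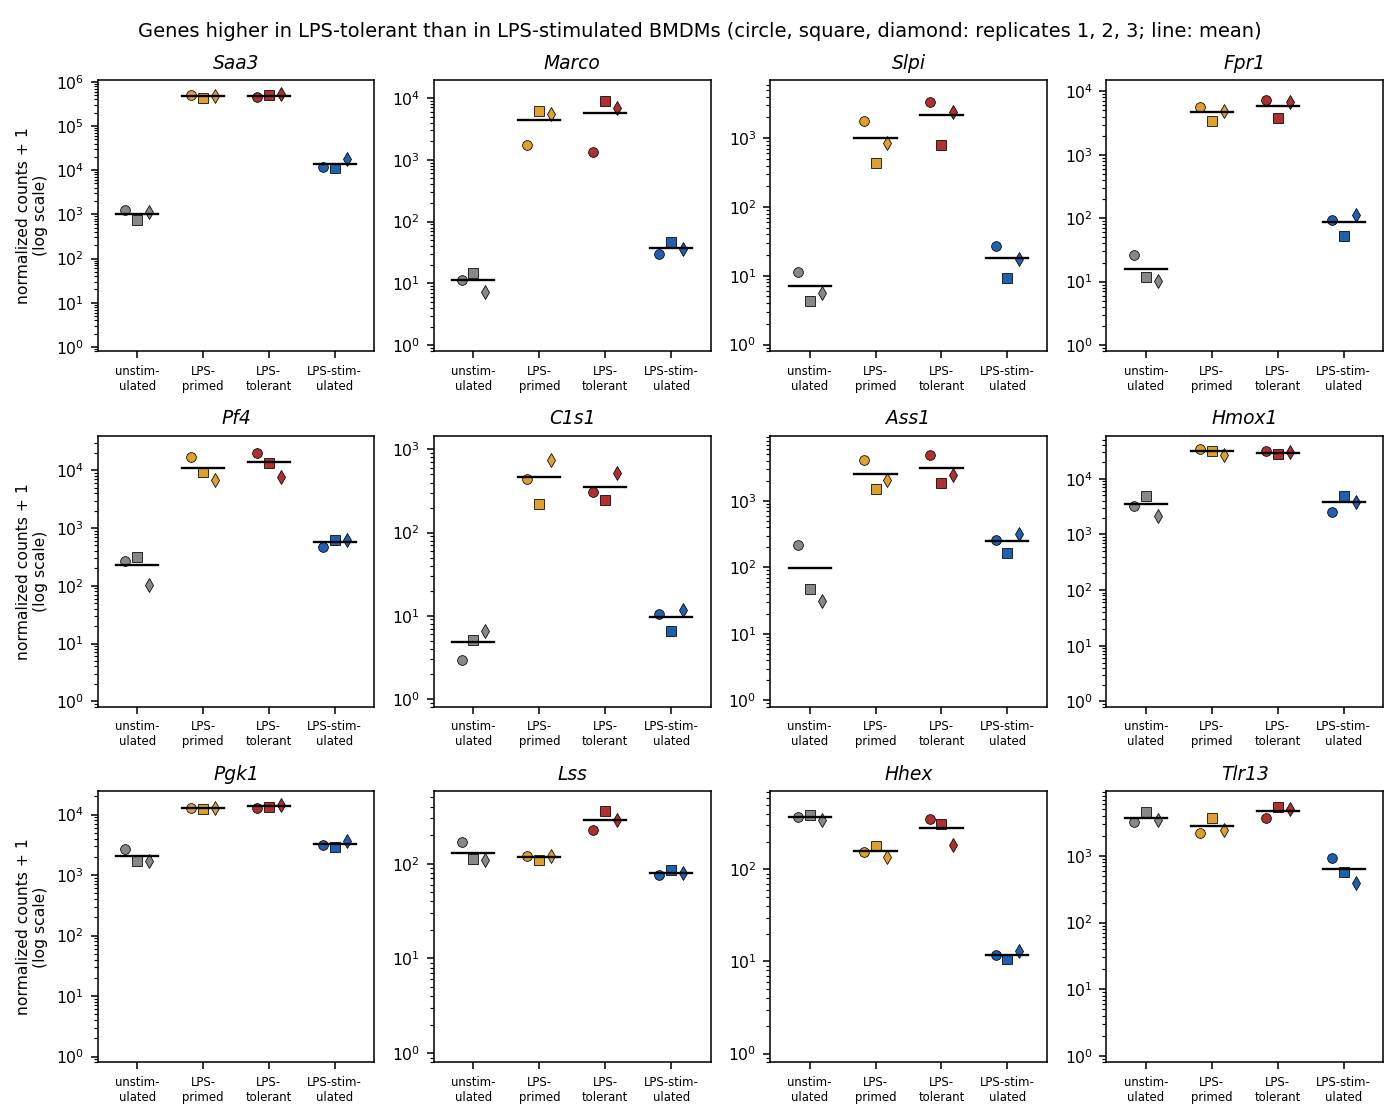
Normalized counts plus 1 (log axis) of 12 genes that rose in tolerant against singly stimulated cells, drawn for the same 4 groups and in the same way as the lower genes. Saa3, Marco, Slpi, Fpr1, Pf4, C1s1, Ass1, Hmox1 and Pgk1 were raised in LPS-primed samples already, whereas Hhex and Tlr13 were lowest after the single dose and Lss highest in tolerant samples.

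Complement genes rose in 6 and fell in 3 of 10 (median log2FC 1.77). Cfb, factor B of the alternative pathway, was at 6975, 6239 and 7378 normalized counts in LPS-tolerant and 601, 437 and 657 in LPS-stimulated samples (log2FC 3.62 ± 0.19, edgeR adjusted p = 9.14e-11). C1s1, a protease of the classical pathway, was at 304, 249 and 513 normalized counts in LPS-tolerant and 9.55, 5.53 and 10.8 in LPS-stimulated samples (log2FC 5.37 ± 0.23, edgeR adjusted p = 8.54e-12). Cd55, which protects cells from complement, also rose (log2FC 3.83 ± 0.56, edgeR adjusted p = 2.23e-05, log2FC 4.66 without LPS-stimulated replicate 1 and 2.94 without LPS-stimulated replicate 2). In Cfb and C1s1 the groups were far apart and the primed means were close to the tolerant levels ( 7858 and 464). Of the C1q chains C1qc (log2FC -0.80 ± 0.21, edgeR adjusted p = 0.0049, 0.27 without the replicate block, 0.057 in a fit of the 6 samples alone) and C1qb (log2FC -0.65 ± 0.21, edgeR adjusted p = 0.015, 0.41 without the replicate block, 0.083 without LPS-tolerant replicate 1, 0.061 without LPS-tolerant replicate 3, 0.081 without LPS-stimulated replicate 1, 0.097 without LPS-stimulated replicate 3, 0.11 in a fit of the 6 samples alone) fell with overlapping groups, whereas C1qa did not pass (log2FC -0.07 ± 0.26, edgeR adjusted p = 0.86). In all 3 chains tolerant replicate 2 was the highest of its group, with 3814 normalized counts of C1qa against 1303 and 1325.

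Scavenger receptors, phagocytic receptors and C-type lectins rose in 16 and fell in 9 of 26 (median log2FC 0.75). Clec4n (Dectin-2), a receptor of fungal mannans, was at 2746, 627 and 1271 normalized counts in LPS-tolerant and 35.8, 58.1 and 61.1 in LPS-stimulated samples (log2FC 4.53 ± 0.43, edgeR adjusted p = 1.45e-07, log2FC 5.17 without LPS-stimulated replicate 2). Cd163, the haemoglobin scavenger, was at 55.7, 99.3 and 95.7 normalized counts in LPS-tolerant and 8.35, 8.30 and 2.96 in LPS-stimulated samples (log2FC 3.66 ± 0.35, edgeR adjusted p = 1.61e-07). Those that fell include genes of apoptotic-cell uptake and lipid handling. Axl, a receptor for apoptotic cells, was at 114, 151 and 144 normalized counts in LPS-tolerant and 1771, 1562 and 1762 in LPS-stimulated samples (log2FC -3.64 ± 0.15, edgeR adjusted p = 4.83e-12). Cd5l, a scavenger-type protein of resident macrophages, was at 184, 82.9 and 76.2 normalized counts in LPS-tolerant and 4466, 4893 and 3159 in LPS-stimulated samples (log2FC -5.27 ± 0.26, edgeR adjusted p = 5.35e-11). These were high in unstimulated cells, with means of 1459 and 5197, and low after priming, with 238 and 201. Olr1, a receptor of oxidised LDL, had a different course, at 198, 263 and 221 normalized counts in LPS-tolerant and 2419.7, 4805 and 2334 in LPS-stimulated samples (log2FC -3.76 ± 0.26, edgeR adjusted p = 2.54e-09) from an unstimulated mean of 0.62.

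Integrins and adhesion molecules fell in 16 and rose in 4 of 23 (median log2FC -0.90). Vcam1, a ligand of integrin alpha 4, was at 29.1, 42.3 and 26.8 normalized counts in LPS-tolerant and 878, 736 and 897 in LPS-stimulated samples (log2FC -4.70 ± 0.26, edgeR adjusted p = 1.46e-10). Selp (P-selectin) was at 0, 2.59 and 4.12 normalized counts in LPS-tolerant and 123, 75.4 and 167 in LPS-stimulated samples (edgeR adjusted p = 2.31e-06). Itgam (CD11b), the alpha chain of Mac-1, was at 26089, 25981 and 28694 normalized counts in LPS-tolerant and 3839.5, 5606 and 5405 in LPS-stimulated samples (log2FC 2.47 ± 0.13, edgeR adjusted p = 1.21e-10), and its partner Itgb2 rose by less (log2FC 0.81 ± 0.09, edgeR adjusted p = 1.51e-06). Thbs1, the matrix protein thrombospondin 1, was at 101073, 13529 and 26684 normalized counts in LPS-tolerant and 5639, 2855 and 4381 in LPS-stimulated samples (log2FC 3.06 ± 0.34, edgeR adjusted p = 8.89e-07), with tolerant replicate 1 several times above the other two. Itgb1 did not pass (log2FC -0.21 ± 0.11, edgeR adjusted p = 0.14). Proteases, their inhibitors and matrix genes were balanced, with 8 higher and 7 lower of 23 (median log2FC -0.18). Mmp9 (gelatinase B) was at 986, 279.8 and 461 normalized counts in LPS-tolerant and 8.35, 13.1 and 46.3 in LPS-stimulated samples (log2FC 4.44 ± 0.48, edgeR adjusted p = 6.58e-07, log2FC 3.79 without LPS-stimulated replicate 1 and 5.62 without LPS-stimulated replicate 3) and Serpinb2 (PAI-2), which overlaps Serpinb10 on its strand, at 11134, 2379 and 5174 normalized counts in LPS-tolerant and 138, 164 and 311 in LPS-stimulated samples (log2FC 4.59 ± 0.33, edgeR adjusted p = 5.13e-09). Mmp8, a neutrophil collagenase counted among the neutrophil markers, rose as well (log2FC 4.02 ± 0.68, edgeR adjusted p = 9.68e-05, log2FC 3.28 without LPS-stimulated replicate 1 and 5.18 without LPS-stimulated replicate 2). Mmp13 (collagenase 3) was at 1335, 197 and 617 normalized counts in LPS-tolerant and 4316, 15377 and 14157 in LPS-stimulated samples (log2FC -4.49 ± 0.63, edgeR adjusted p = 1.41e-05, log2FC -5.18 without LPS-stimulated replicate 1 and -3.69 without LPS-stimulated replicate 2).

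Arginine can be turned by macrophages into nitric oxide by Nos2 or into ornithine by arginase 1. Of 14 genes of arginine, nitric oxide and polyamine metabolism 4 rose and 6 fell (median log2FC -0.79). Arg1 was at 47245, 7960.5 and 24508 normalized counts in LPS-tolerant and 38.2, 50.5 and 95.6 in LPS-stimulated samples (log2FC 8.34 ± 0.44, edgeR adjusted p = 9.14e-11, log2FC 7.73 without LPS-stimulated replicate 1), with the lowest tolerant value, in replicate 2, still far above the stimulated ones. Ass1, which remakes arginine from citrulline, was at 4888, 1841 and 2465 normalized counts in LPS-tolerant and 260.1, 164 and 315 in LPS-stimulated samples (log2FC 3.50 ± 0.30, edgeR adjusted p = 3.64e-08). Odc1, the first enzyme of polyamine synthesis, was at 7079, 2345 and 3463 normalized counts in LPS-tolerant and 18239.6, 11901 and 11084 in LPS-stimulated samples (log2FC -1.73 ± 0.26, edgeR adjusted p = 3.13e-05). Srm, spermidine synthase, fell too (log2FC -1.74 ± 0.29, edgeR adjusted p = 7.04e-05). Of 18 enzymes of prostaglandins, leukotrienes and platelet-activating factor 4 rose and 7 fell (median log2FC -0.40). Ptgs2 (COX-2) was at 2017, 327 and 1496 normalized counts in LPS-tolerant and 9280.3, 17083 and 15500.3 in LPS-stimulated samples (log2FC -3.92 ± 0.46, edgeR adjusted p = 1.67e-06, log2FC -2.98 without LPS-stimulated replicate 2). Hpgd, which inactivates prostaglandins, was at 3.80, 0.86 and 1.03 normalized counts in LPS-tolerant and 141, 126 and 179 in LPS-stimulated samples (edgeR adjusted p = 7.95e-09) and at 328, 544 and 1192 in unstimulated cells. Pla2g7, the hydrolase of platelet-activating factor, had the smallest p of all DEGs, at 17319, 18802 and 17994 normalized counts in LPS-tolerant and 789.9, 846 and 729.6 in LPS-stimulated samples (log2FC 4.52 ± 0.11, edgeR adjusted p = 5.37e-15). Bst1, an ectoenzyme of NAD metabolism, was among the 3 higher DEGs with the smallest p as well (log2FC 4.19 ± 0.11, edgeR adjusted p = 1.84e-14).

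Of 44 genes of the oxidative stress response and targets of NRF2, the regulator of antioxidant genes, 22 rose and 9 fell (median log2FC 0.31). Hmox1, which degrades haem, was at 31165, 27242 and 30181 normalized counts in LPS-tolerant and 2540.2, 4818 and 3853 in LPS-stimulated samples (log2FC 3.0 ± 0.23, edgeR adjusted p = 7.58e-09), with no overlap. Osgin1 was at 266, 136 and 102 normalized counts in LPS-tolerant and 14.3, 13.8 and 16.8 in LPS-stimulated samples (log2FC 3.43 ± 0.31, edgeR adjusted p = 8.88e-08) and Sesn2, a sestrin, at 151, 44.0 and 87.5 normalized counts in LPS-tolerant and 26.2, 22.1 and 12.8 in LPS-stimulated samples (log2FC 2.10 ± 0.32, edgeR adjusted p = 3.16e-05). In unstimulated cells the means of these genes were 156 and 123, so that the stimulated group was the lowest. Mt2, a metallothionein, went the other way, at 5305, 2599 and 6104 normalized counts in LPS-tolerant and 29333, 24841 and 35499 in LPS-stimulated samples (log2FC -2.71 ± 0.26, edgeR adjusted p = 1.57e-07). Sod2 did not pass (log2FC 0.21 ± 0.15, edgeR adjusted p = 0.25). Genes of iron handling rose in 9 and fell in 4 of 15 (median log2FC 0.60): Hp, haptoglobin, was at 1559, 1529 and 4202 normalized counts in LPS-tolerant and 60.9, 80.3 and 166 in LPS-stimulated samples (log2FC 4.49 ± 0.21, edgeR adjusted p = 2.63e-11), while Slc40a1, the iron exporter ferroportin, fell, at 1.27, 3.45 and 4.12 normalized counts in LPS-tolerant and 20.3, 23.5 and 14.8 in LPS-stimulated samples (edgeR adjusted p = 0.0016). Tfrc, the transferrin receptor, did not pass (log2FC 0.30 ± 0.23, edgeR adjusted p = 0.3).

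Glycolytic genes rose in 14 and fell in 5 of 24 (median log2FC 0.75). Pgk1 was at 12900.0, 13518 and 14415 normalized counts in LPS-tolerant and 3167, 2875 and 3604 in LPS-stimulated samples (log2FC 2.08 ± 0.14, edgeR adjusted p = 2.61e-09), and Eno1, which like Pgk1 acts in the lower part of the pathway, rose (log2FC 1.90 ± 0.14, edgeR adjusted p = 6.36e-09). Gpi1, the enzyme of the second step, rose too (log2FC 1.79 ± 0.12, edgeR adjusted p = 2.04e-09). Pgk1 in tolerant cells was close to primed samples (13039, 12215 and 12635). Hk2, the inducible hexokinase of the first step, fell (log2FC -1.52 ± 0.16, edgeR adjusted p = 5.09e-07), and so did Pfkfb3, which makes the activator of phosphofructokinase (log2FC -1.06 ± 0.23, edgeR adjusted p = 8.46e-04), and the sugar transporter Slc2a6 (log2FC -2.89 ± 0.22, edgeR adjusted p = 7.15e-09). Slc2a1, the main glucose transporter, did not pass (log2FC 0.23 ± 0.18, edgeR adjusted p = 0.3, 0.012 without LPS-stimulated replicate 3). Gapdh did not pass (log2FC 1.02 ± 0.42, edgeR adjusted p = 0.055, 0.028 without LPS-tolerant replicate 2, 0.020 without the expression filter, 0.025 in a fit of the 6 samples alone). Its counts are uncertain since the gene has many near-identical pseudogene copies.

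Of 29 genes of cholesterol synthesis, uptake and efflux 21 rose and 2 fell (median log2FC 0.88), all but 1 of the rises below the DEG limit. Lss, which closes the sterol rings, was at 224, 356 and 287 normalized counts in LPS-tolerant and 75.2, 85.1 and 77.9 in LPS-stimulated samples (log2FC 1.86 ± 0.20, edgeR adjusted p = 7.19e-07). Mvd, of the mevalonate steps, was at 336, 472 and 424 normalized counts in LPS-tolerant and 84.7, 127 and 155 in LPS-stimulated samples (log2FC 1.76 ± 0.27, edgeR adjusted p = 3.50e-05). Neither overlapped, and the primed means were 116 and 258. Lss was higher in tolerant than in primed cells (log2FC 1.32 ± 0.20, edgeR adjusted p = 1.84e-04). Dhcr7, the last step of synthesis, was at 64.6, 109 and 113 normalized counts in LPS-tolerant and 34.6, 20.8 and 9.86 in LPS-stimulated samples (log2FC 2.15 ± 0.39, edgeR adjusted p = 2.24e-04). Ch25h, which makes the antiviral oxysterol 25-hydroxycholesterol, fell, at 114, 81.2 and 105 normalized counts in LPS-tolerant and 3839.5, 1443 and 1273 in LPS-stimulated samples (log2FC -4.27 ± 0.33, edgeR adjusted p = 1.23e-08). Apoe, the carrier of lipid efflux, fell with overlapping groups (log2FC -1.39 ± 0.20, edgeR adjusted p = 1.46e-05, 0.23 without the replicate block). Srebf2, the transcription factor of the synthesis genes, did not pass (log2FC -0.04 ± 0.13, edgeR adjusted p = 0.8).

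Genes of the G2 and M phases of the cell cycle were lower: 47 of 54 fell, 28 as DEGs, 1 rose and 6 did not pass, with a median log2FC of -2.02. Ccnb2, a B-type cyclin, was at 27.9, 91.5 and 44.3 normalized counts in LPS-tolerant and 824, 888 and 478 in LPS-stimulated samples (log2FC -3.74 ± 0.25, edgeR adjusted p = 1.39e-09). Cdc20, an activator of the anaphase-promoting complex, was at 53.2, 56.1 and 50.4 normalized counts in LPS-tolerant and 523, 785 and 404 in LPS-stimulated samples (log2FC -3.39 ± 0.24, edgeR adjusted p = 4.29e-09). Neither overlapped. Unstimulated samples held 1216, 1334 and 1015 normalized counts of Ccnb2, and LPS-primed ones held 42.3, 66.1 and 53.5. For Cdc20 these were 917, 1126 and 574 and 32.8, 49.0 and 50.6. Of 42 S-phase genes 10 (23.8%) fell, 3 rose and 29 did not pass (median log2FC -0.30), where 24.7% of all tested genes fell. Without LPS-stimulated replicate 1 the falls no longer outnumbered the rises. E2f8, a repressor of the E2F family, was the 1 DEG among the S-phase genes (log2FC -2.60 ± 0.31, edgeR adjusted p = 2.36e-06). Mcm5, of the replicative helicase, was at 83.6, 130.4 and 105 normalized counts in LPS-tolerant and 447, 255 and 147 in LPS-stimulated samples (log2FC -1.30 ± 0.33, edgeR adjusted p = 0.0034). Pcna did not pass (log2FC 0.20 ± 0.20, edgeR adjusted p = 0.43).

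Of 23 lineage transcription factors and receptors of macrophages 8 rose and 8 fell (median log2FC 0.27). Hhex, a homeobox factor, was at 352, 310.0 and 185 normalized counts in LPS-tolerant and 10.7, 9.69 and 11.8 in LPS-stimulated samples (log2FC 4.70 ± 0.33, edgeR adjusted p = 3.49e-09). Rxra, the partner of many nuclear receptors, was at 113, 132 and 111 normalized counts in LPS-tolerant and 13.1, 24.9 and 14.8 in LPS-stimulated samples (log2FC 2.78 ± 0.29, edgeR adjusted p = 3.89e-07). Unstimulated samples held 374, 390.1 and 344 normalized counts of Hhex and 43.0, 154 and 101 of Rxra, all above the stimulated ones. Tfec, a factor of the Mitf family, was at 261, 206 and 144 normalized counts in LPS-tolerant and 2205, 3771 and 3149.9 in LPS-stimulated samples (log2FC -3.92 ± 0.22, edgeR adjusted p = 1.50e-10). Pparg was at 11.4, 27.6 and 22.6 normalized counts in LPS-tolerant and 119, 87.9 and 70.0 in LPS-stimulated samples (log2FC -2.12 ± 0.36, edgeR adjusted p = 1.08e-04). Pparg fell after priming alone, from a mean of 405 to 7.46 (log2FC -5.78 ± 0.41, edgeR adjusted p = 4.12e-09).

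**Figure D4:**
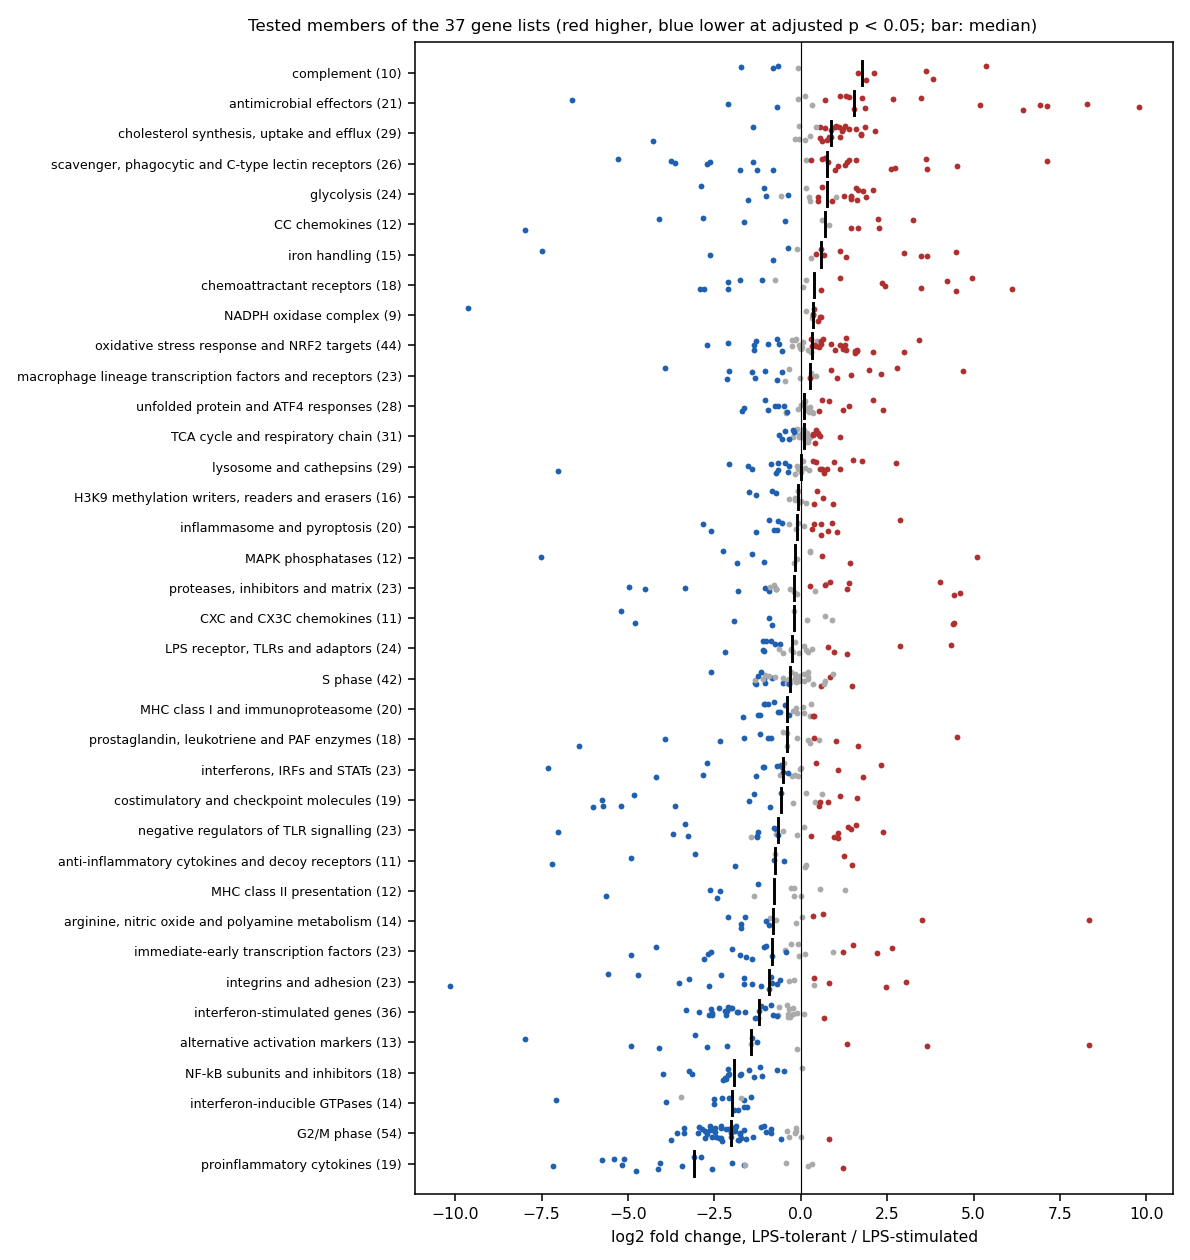
Log2 fold change of LPS-tolerant over LPS-stimulated BMDMs for each tested member of the 37 gene lists (number tested in parentheses), sorted by the median (bar), with red for genes higher and blue for genes lower at an adjusted p under 0.05 and grey for the rest. Proinflammatory cytokines, G2/M genes, interferon-inducible GTPases and NF-kB genes lie at the bottom with medians from -3.09 to -1.92, and complement and antimicrobial effectors at the top with 1.77 and 1.55.

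Some genes had few or no reads in 1 of the groups. In 94 of the lower DEGs no tolerant library had more than 3 reads, and in 62 of the higher DEGs no stimulated library did. Sele, the adhesion receptor E-selectin, had no read in tolerant samples against 308, 82.3 and 85.8 normalized counts after the single dose, at least 50.2-fold lower with the tolerant libraries set at 3 reads each. Without LPS-stimulated replicate 1 this bound was 26.6-fold. Sele passed in edgeR (adjusted p = 2.43e-05) but not in DESeq2 (adjusted p = 0.13 with and 0.14 without the block). Counted the same way, Hr, a nuclear corepressor, was at least 36.4-fold lower than its stimulated values of 109.8, 84.4 and 151. Nox1, an NADPH oxidase, was at least 33.0-fold lower than 153, 76.8 and 82.8, and Mycl, a relative of Myc, at least 23-fold lower than 54.9, 70.6 and 92.7. Mycl passed in edgeR (adjusted p = 4.53e-05) and in DESeq2 without the block (adjusted p = 9.53e-09) but not with it (adjusted p = 0.17). Hr and Nox1 overlap other genes on their strand. In unstimulated cells Nox1 had a mean of 10.3 normalized counts. On the higher side Il23r, a chain of the IL-23 receptor, had 96, 237 and 184 reads in tolerant and 1, 0 and 0 in stimulated samples. Stfa3, a stefin, had 724, 47 and 383 against 0, 0 and 1. Ly6c2, a marker of monocytes with a close paralog, had 54, 93 and 283 against 0, 2 and 0. In LPS-primed cells these 3 genes had means of 132, 108 and 100.4 normalized counts.

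How far the first dose alone had already moved these genes can be read from LPS-primed against unstimulated BMDMs, which share no sample with the main comparison. Of the 352 higher DEGs, 193 (54.8%) were higher after priming, 47 were lower and 112 did not pass, where 18.9% of all tested genes were higher after priming. DEGs higher in both comparisons numbered 143, which is 40.6% of the 352 and 35.2% of the 406 genes (3.59% of those tested) that rose after priming at the DEG limits. Of the 583 lower DEGs, 258 (44.3%) were lower after priming, 196 of them at the DEG limits (4.25% of all tested genes met these), 124 (21.3%) were higher and 201 did not pass, where 19.8% of all tested genes were lower. Thus the lower DEGs included both genes that priming had lowered, such as Ccnb2, Axl and Pparg, and genes that priming had raised, such as Il4ra, Nos2 and Ptgs2. In the direct comparison of LPS-tolerant with LPS-primed BMDMs, which shares the tolerant samples, 59 genes (0.522%) were higher and 49 (0.433%) lower at the DEG limits.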

How the data were processed

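RNA-Seq counts of 18 samples of mouse BMDMs, 3 in each of 6 groups, were used. For each sample the authors made a stranded library from mRNA, used HISAT2 for alignment to GRCm39 and HTSeq-count for counting. What they deposited are raw counts for each gene symbol, without normalization. The length of the single dose, 3 h, is that of the study's scheme. Versions, annotation and the strand setting are not given in the sources used here, so reads shared with paralogs, overlapping or antisense genes may be misplaced. Of 22852 symbols, 15486 had a read in some sample. The 5 summary lines that name no gene, 42.2 to 46.9% of the read pairs in the 6 samples compared, were left out.

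All 18 samples were fitted with edgeR 4.0.16 in R 4.3.3 (TMM, filterByExpr with a minimum count of 10 and a minimum total of 15, group means and the replicate number as a block, prior count 0.125), and p values of the quasi-likelihood F test were adjusted by Benjamini and Hochberg over 11305 genes. The script was tested on simulated data. SE was taken as |log2FC| over the root of F. For normalized counts, each count was scaled by its TMM-adjusted library size to the mean of these sizes. At this depth a group with at most 3 reads in each library is at the floor, and folds against groups without a read are bounds set at 3 reads per library, which cover counting error only. After group means were removed, same-numbered samples of the 2 groups correlated at 0.28, 0.39 and 0.18 and samples of different number at -0.14. Removing a group mean by itself gives samples of different number the opposite sign, so the -0.14 is no separate support for the pairing. Samples of a group differed by far more than sampling noise and were counted separately.

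The members and the 37 gene lists were chosen with earlier results of these data known, and lists are described by counts and medians without a test. Named genes are the 8 with the largest and smallest log2FC among consistent DEGs with a mean of at least 50 normalized counts, up to 3 per list in each direction and up to 2 that did not pass, the genes the study followed, and the 3 DEGs in each direction with the smallest p. A subset is printed, some genes are not reported here, and genes named after their values were seen are marked. Positions and promoters are from GENCODE vM39 on GRCm39, where 11002 of the tested symbols had a match. Alternatives were RLE size factors, library size alone, other filters, DESeq2 1.42.0, limma-voom (limma 3.58.1), fits of 6 samples or without the block, a prior count of 2, other limits, and leaving out each sample.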

Additional observations from a re-analysis of the deposited data

How the results depend on the processing

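The split of 935 DEGs into 352 higher and 583 lower genes stayed within 1.5 times of these counts under 16 of the 18 alternatives. Without the replicate block there were 909, of which 336 were higher, 573 lower and 893 shared with the fit with the block. A fit of the 6 samples alone gave 832 (292 higher, 540 lower), of which 817 were shared with the main fit. With each sample left out in turn there were 938 to 984, with 348 to 410 higher and 574 to 636 lower. A filter of at least 10 counts in each of the 6 samples left 486 (172 higher, 314 lower), since it removes genes that are absent from 1 group, and a limit of |log2FC| over 1 gave 2472 (1109 higher, 1363 lower). Of the 166 genes whose values are given, 27 changed their call or their sign in some alternative. C1qa, which did not pass, had the opposite sign without the block (0.17), in DESeq2 without the block (0.15) and in limma-voom (0.038). Among genes that did not pass, with samples left out the log2FC ranged from -0.39 to 0.24 for C1qa, -0.88 to 0.83 for Csf3, -0.42 to 0.84 for Cxcl3, -0.083 to 0.14 for Chuk, -0.22 to 0.042 for Ifnar1, -0.25 to 0.054 for Oas1a, -0.0082 to 0.53 for Slc2a1, -0.028 to 0.37 for Sod2, -0.24 to 0.068 for Tank and -0.55 to 0.12 for Cd86. The causes of these sign changes were not tested. In 11 of the 37 lists the balance of higher and lower calls changed in some alternative, where a tie made or broken also counts. Among these, CC chemokines (5 and 5), lysosomal genes (11 and 11) and inflammasome genes (8 and 8) were tied in the main fit. So were H3K9 methylation genes (4 and 4) and macrophage lineage genes (8 and 8), so these lists had no direction to lose. At 8179888 to 14708099 reads per sample, folds of genes with at most 3 reads in each library of a group are bounds or are not given.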

Other observations

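Of 20 genes of MHC class I presentation and the immunoproteasome 11 fell and 2 rose, none as a DEG (median log2FC -0.40). Tap1, a chain of the peptide transporter, was at 586, 530.2 and 571 normalized counts in LPS-tolerant and 1505, 1251 and 1258 in LPS-stimulated samples (log2FC -1.24 ± 0.16, edgeR adjusted p = 3.79e-06), while H2-K1 did not pass (log2FC -0.12 ± 0.11, edgeR adjusted p = 0.41). Genes of the inflammasome and pyroptosis rose in 8 and fell in 8 of 20 (median -0.11). Casp4, which encodes caspase-11, the cytosolic sensor of LPS, was at 396, 358 and 234 normalized counts in LPS-tolerant and 1904, 3046 and 2051 in LPS-stimulated samples (log2FC -2.84 ± 0.22, edgeR adjusted p = 1.36e-08) without overlap, and Casp1 fell too (log2FC -1.30 ± 0.14, edgeR adjusted p = 6.84e-07). Gsdme, a pore-forming gasdermin, rose (log2FC 2.86 ± 0.40, edgeR adjusted p = 1.24e-05, log2FC 3.94 without LPS-stimulated replicate 1). Nod2, which senses muramyl dipeptide, fell (log2FC -2.58 ± 0.23, edgeR adjusted p = 5.42e-08).

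Subunits of the NADPH oxidase rose in 6 and fell in 1 of 9 (median log2FC 0.37), by small steps: Ncf1 was at 3360.5, 3134 and 3982 normalized counts in LPS-tolerant and 2954, 1679.8 and 2577 in LPS-stimulated samples (log2FC 0.55 ± 0.14, edgeR adjusted p = 0.003), and the catalytic subunit Cybb did not pass (log2FC 0.33 ± 0.15, edgeR adjusted p = 0.076, 0.027 without LPS-tolerant replicate 2, 0.0016 without LPS-stimulated replicate 2). Lysosomal genes and cathepsins rose in 11 and fell in 11 of 29 (median 0.02). Ctsl (cathepsin L) was at 88003, 52882 and 49119 normalized counts in LPS-tolerant and 25754, 17177 and 12924 in LPS-stimulated samples (log2FC 1.77 ± 0.10, edgeR adjusted p = 1.72e-10). Tfeb, a regulator of lysosomal genes, was at 220.3, 275 and 226 normalized counts in LPS-tolerant and 34.6, 40.1 and 30.6 in LPS-stimulated samples (log2FC 2.76 ± 0.19, edgeR adjusted p = 1.92e-09). The unstimulated mean of Tfeb was 616, above both the tolerant and the stimulated samples. Genes of the TCA cycle and respiratory chain rose in 8 (25.8%) and fell in 6 (19.4%) of 31, none as a DEG (median 0.09). Genes of the unfolded protein and ATF4 responses rose in 7 (25%) and fell in 8 (28.6%) of 28 (median 0.11). These shares were near those of all tested genes, of which 22.9% rose and 24.7% fell. Idh1, which makes NADPH in the cytosol, rose (log2FC 1.14 ± 0.18, edgeR adjusted p = 5.72e-05), and Ddit3 (CHOP) rose as well (log2FC 1.39 ± 0.19, edgeR adjusted p = 8.93e-06). Alternative activation markers fell in 8 and rose in 3 of 13 (median -1.45). Ccl22 and Egr2, given above, were among those that fell, and Arg1 and Cd163 among those that rose. Writers, readers and erasers of H3K9 methylation rose in 4 (25%) and fell in 4 (25%) of 16, none as a DEG (median -0.09). This too was near the shares of all tested genes. Suv39h1, an H3K9 methyltransferase, was at 54.4, 65.6 and 29.9 normalized counts in LPS-tolerant and 116, 145 and 105 in LPS-stimulated samples (log2FC -1.31 ± 0.28, edgeR adjusted p = 8.46e-04). Setdb1, another, was at 613, 679.6 and 647 normalized counts in LPS-tolerant and 459, 467 and 470.3 in LPS-stimulated samples (log2FC 0.47 ± 0.10, edgeR adjusted p = 8.80e-04).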
